A study of Rattus norvegicus with 11 samples.

Results

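Ileal RNA of rats with severe acute pancreatitis (SAP) was compared with ileal RNA of control rats. All libraries labelled SAP with vehicle and all libraries labelled Control were taken, which gave 7 of the 11 libraries of the series, 4 SAP and 3 Control. The 4 libraries of SAP rats given JZL184, an inhibitor of monoacylglycerol lipase, were left out of this comparison. The animals were male SD rats, aged 6 to 8 weeks per the labels. In the SAP group 3% sodium taurocholate, a bile salt, had been run into the pancreatic duct at 0.1 ml per 100 g. Rats were allocated to groups 24 h after surgery and killed after a further 24 h. Both groups received the same intraperitoneal vehicle, a mixture of saline, ethanol and Tween-80, and no JZL184. The sources used here do not say whether control rats underwent a sham operation, so operation and pancreatitis cannot be told apart. The treatment field of the control samples reads "control plasmid" and the SAP titles carry the word "oil", and neither a plasmid nor an oil is described in the study's methods.

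Severe acute pancreatitis starts as self-digestion of the pancreas and becomes a systemic inflammation in which distant organs, the intestine among them, are injured. The ileal epithelium separates the gut lumen from the blood by tight junctions, mucus and antimicrobial proteins, recovers bile acids, and moves salt and water through channels and exchangers. Inflamed tissue is known to make chemokines that attract neutrophils and monocytes, and cytokines of the interleukin-6 type turn on acute-phase genes through STAT3 and C/EBP factors.

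The libraries held between 27230159 and 33847135 reads on genes. The labels name the sample type as intestinal epithelial cell and the source as ileum. Fabp6, the ileal bile acid binding protein, reached 20506 to 21819 FPKM (read fragments scaled to gene length and to the library's total) in Control and 3079 to 13670 FPKM in SAP, and Epcam was at 2220 FPKM or more in every library. Smooth muscle markers were also high, with Des at 182 to 730 FPKM and Acta2 at 106 to 267 FPKM, and T cell, B cell and macrophage markers were present, so the libraries held RNA of the gut wall and not of epithelium alone. The defining markers of exocrine pancreas, Prss1, Cpa1 and Cela2a, were at 0.17 FPKM or less in all 7 libraries. In bulk tissue, fewer cells of a type and less RNA per cell cannot be told apart.

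Some libraries stood apart. Control 1 and 2 were nearly identical, with a chi-square of 2.81 per gene against 77.5 to 563 for the other pairs within a group, and were summed and counted as 1 sample. Each test therefore set 4 SAP libraries against 2 control samples. SAP 1 and 2 carried more of the long genes. In them the median log2 ratio to Control was -0.68 and -0.72 over the shortest genes (up to 1.89 kb) and 0.80 and 0.84 over the longest (from 5.36 kb), against -0.10 and 0.11 in SAP 3 and 0.01 and 0.03 in SAP 4. SAP 2 held 22 reads on Y-linked genes, where the other 6 libraries held 1282 to 6351. It also held 7826 reads on LOC100911498, listed as Xist in RefSeq, where the others held 0 to 56, although the methods describe male rats. Values without SAP 2 or with the trend on gene length removed are given beside some of the results that they moved.

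With edgeR's quasi-likelihood test, 0 of 16029 genes (0%) passed an adjusted p of 0.05 with a fold change above 2 or below 0.5, and the smallest adjusted p, that of Myh6, was 0.0967. At an unadjusted p under 0.05 there were 912 genes higher in SAP (5.69%) and 545 lower (3.4%). In 1807 genes (11.3%) every SAP library lay above both control samples, and in 1907 (11.9%) below them. DESeq2, run on the same samples with the same thresholds, called 142 genes higher in SAP (0.795% of 17872) and 61 lower (0.341%). Of these 203 genes, 202 had an edgeR p under 0.05, 197 had groups that did not overlap, and 125 were also called without SAP 2. The call therefore depended on the tool. In counts simulated for this design with the spread estimated here, DESeq2 recovered most of the changed genes, but the share of its calls that were false was well above its adjusted p threshold, while edgeR recovered few changed genes and made few false calls. DESeq2's adjusted p-values below may therefore be too small, and its calls may include genes that did not change. With the 3 control libraries entered separately, which counts 1 control sample as 2, DESeq2 called 1115 genes higher (6.75% of 16507) and 353 lower (2.14%). Below, "called" means called by DESeq2 with Control 1 and 2 summed, and fold changes are edgeR's with their standard errors. Calls in a list are to be read against 0.795% of all genes higher and 0.341% lower. Groups without overlap are to be read against 11.3% and 11.9%. List members are counted over the genes that edgeR tested, while DESeq2's shares are over its 17872 genes. A gene with hardly any control reads could pass the read filter only through the SAP libraries.

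The genes with the clearest separation were of a few kinds. Higher in SAP were secreted acute-phase and tissue-injury proteins (Serpina3n, Lcn2, Ptx3, Chi3l1), macrophage genes (Mrc1, Gpnmb), the matrix proteoglycan gene Vcan, the chordin-like gene Chrdl2 and the bicarbonate channel Best2. Lower in SAP were the lipogenic genes Scd and Thrsp, the stress-induced transcription factor Atf3, the cardiac myosin heavy chain Myh6, the aspartic protease Napsa, and Syt5, Eepd1, Tppp3, Ppial4d and Gprc5a. These come from the 10 genes with the smallest p in each direction among those with at least 100 reads on average and no overlap of the groups, so their separation is part of how they were picked. Each gene named here was called.

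**Figure D1:**
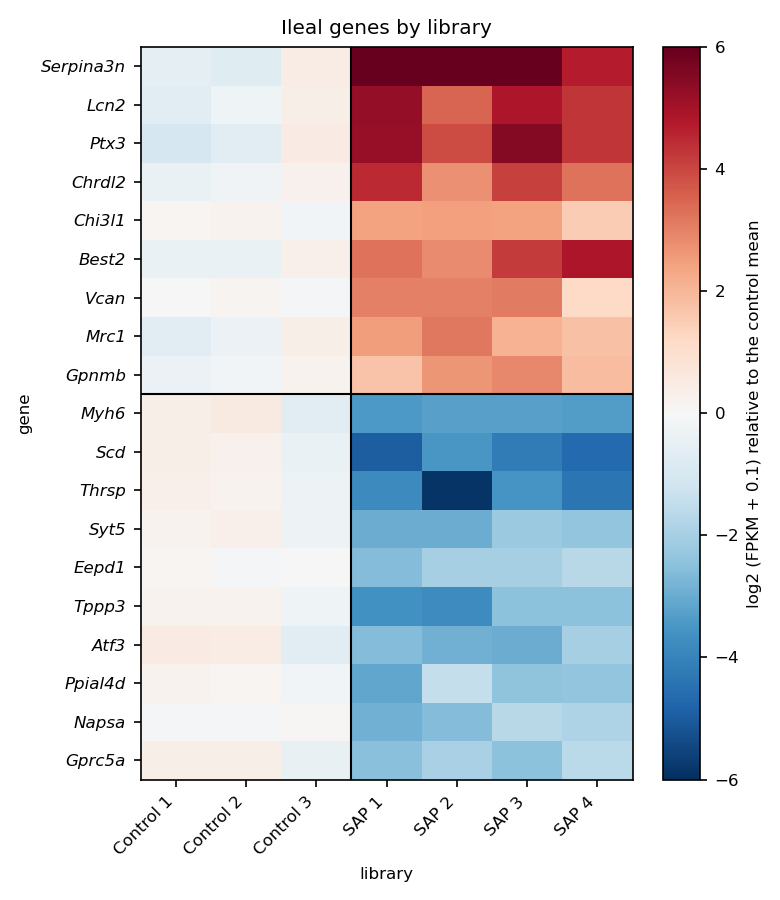
Heat map of 19 of the genes with the smallest p (rows) in the 7 libraries (columns). Colour gives log2 of FPKM plus 0.1 relative to the control mean, with Control 1 and 2 counted as 1 sample, and stops at 6 in each direction. The 4 SAP columns have 1 colour within each row, while the 3 Control columns stay near 0.

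Serpina3n, an inhibitor of serine proteases and an acute-phase protein, was at 0.47, 0.41 and 1.06 FPKM in Control 1 to 3 and at 87.6, 86.5, 62.3 and 22.4 FPKM in SAP 1 to 4. All 4 SAP rats were far above the controls, and SAP 4 was the lowest of them. The fitted difference was 76.7-fold (log2 6.26 ± 0.75 SE, edgeR adjusted p = 0.121, DESeq2 adjusted p = 1.4e-22).

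Lcn2 encodes lipocalin 2, which withholds iron from bacteria. It was at 1.57, 2.07 and 3.25 FPKM in Control and at 100.3, 29.3, 76.6 and 51.5 FPKM in SAP (log2 fold change 4.51 ± 0.64 SE, DESeq2 adjusted p = 1.11e-12). The long pentraxin Ptx3, a soluble pattern recognition molecule, was at 0.32, 0.44 and 1.1 FPKM in Control and at 31.1, 12.6, 38.7 and 16.4 FPKM in SAP (log2 fold change 4.93 ± 0.74 SE, DESeq2 adjusted p = 1.32e-12). Both genes were lowest in SAP 2 among the SAP rats, and both kept their groups apart in every library.

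The promoters of these 3 acute-phase genes are shown because they had the smallest p on the higher side of the set above and the letters of the motifs that STAT3 and C/EBP bind can be read in them. RefSeq (GRCr8) had a promoter entry for 13 of the 20 genes of that set. The 250 bases before the start were searched on both strands for TTCNNNGAA (STAT), TTGCNNAA (C/EBP), GGANTTTCC (NF-kB) and TCACNCCAC (SREBP). Each line gives 30 bases, read along the gene, with the match in capitals.
Serpina3n, STAT, chr6:129088259-129088288, plus strand: tgagtccatgTTCCCAGAAatcatcccgtc
Lcn2, C/EBP, chr3:36081953-36081982, minus strand: agcccttccttTTGCTCAAccttgcacagt
Ptx3, C/EBP on the opposite strand, chr2:152797482-152797511, plus strand: gtggtttaacaTTGTGCAAcctcttcagct
The first base of the match lay 123 bases before the start in Serpina3n, 191 in Lcn2 and 70 in Ptx3. Over all 27457 promoters of the table the STAT letters were found in 7.52% and the C/EBP letters in 9.2%. Among the 8 genes higher in SAP with an entry, 1 held the STAT letters and 2 the C/EBP letters, and among the 5 lower genes the counts were 0 and 1. The letters GGANTTTCC, a narrow form of the NF-kB motif, were found in 1.06% of all promoters, and the SREBP letters in 0.976%. Neither was in any of the 13. At such shares 13 promoters are too few for an absence to carry meaning, and other forms of these motifs were not searched. These matches are descriptions of the sequence, and binding was not measured.

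Of 23 tested genes in a list of acute-phase and NF-kB feedback genes, 7 were called higher and 0 lower, against 0.795% of all genes. Groups did not overlap in 12 members on the higher side and in 3 on the lower side, where 11.3% and 11.9% of all genes did so, and the median log2 fold change was 1.33 against 0.06 over all genes. Besides Serpina3n, Lcn2 and Ptx3, the called members were Fga, Hp, Orm1 and Steap4. These 4 and the other genes named in this paragraph were chosen after their values were seen. Fga, the fibrinogen alpha chain, was at 0.55, 0.55 and 0.69 FPKM in Control and 22.8, 39.7, 3.5 and 6.38 FPKM in SAP (log2 fold change 4.64 ± 1.06 SE, and 3.97 without SAP 2). The beta and gamma chains that pair with it, Fgb and Fgg, stayed at 0.40 FPKM or less in all 7 libraries. Orm1, the acid glycoprotein orosomucoid, was at 0.04 to 0.12 FPKM in Control and 6.20, 0.86, 4.29 and 1.87 FPKM in SAP. Socs3, the feedback inhibitor of interleukin-6 signalling, overlapped between the groups at 12.8, 13.1 and 19.2 FPKM against 44.2, 14.0, 22.4 and 25.5 FPKM.

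**Figure D2:**
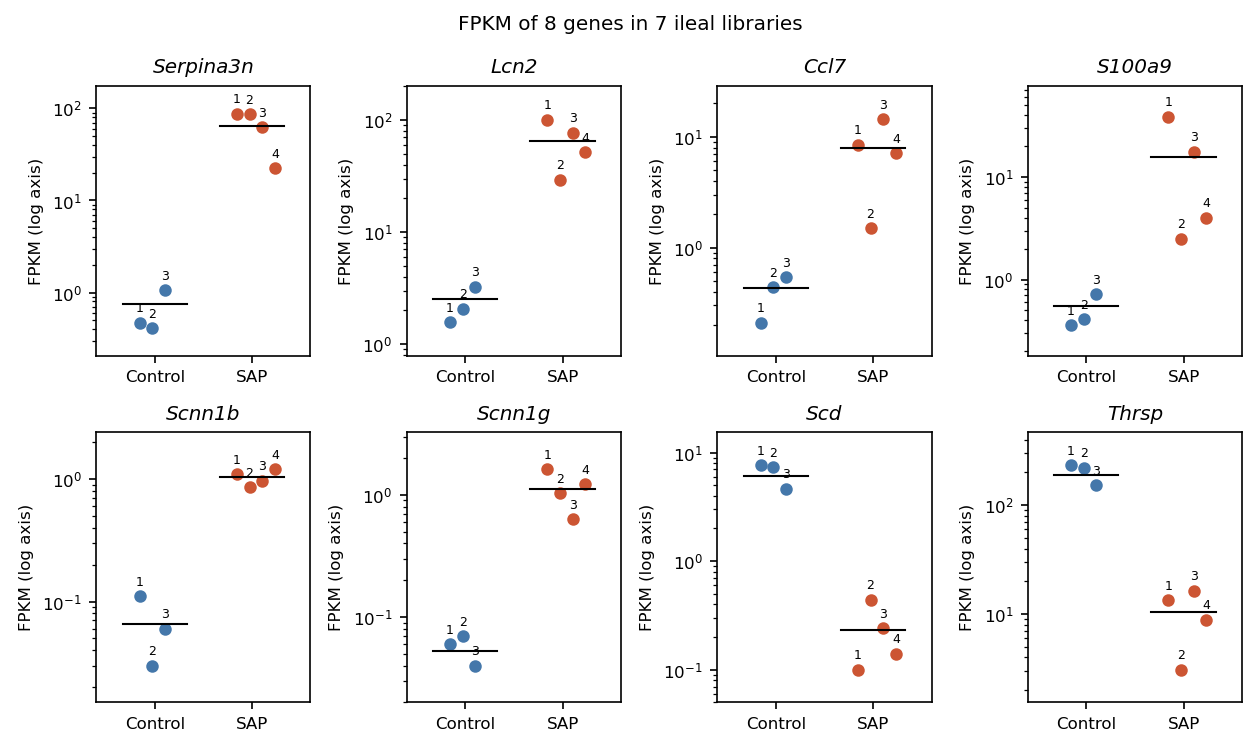
FPKM on a log axis of 8 genes in each library, with the library number above each point and a bar at the group mean (Control 1 and 2 counted as 1 sample). Serpina3n, Lcn2, Ccl7, S100a9, Scnn1b and Scnn1g are higher in all 4 SAP libraries than in any Control library, and Scd and Thrsp are lower.

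Among 30 tested cytokines and chemokines, 8 were called higher and 0 lower, against 0.795% and 0.341% of all genes. The chemokine Ccl22 and the cytokine Il12b, given below, are not in this list and were called lower. The 8 were Il6 and the chemokines Ccl2, Ccl3, Ccl7, Cxcl1, Cxcl2, Cxcl3 and Cxcl6. The list's median log2 fold change was 1.05, and its median log2 ratio to Control was 1.14, 0.24, 0.74 and 0.38 in SAP 1 to 4, so the level differed widely between the SAP rats. Groups did not overlap in 12 members on the higher side and in 0 on the lower, against 11.3% and 11.9% of all genes.

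Il6, the main inducer of the acute phase, had 0, 0 and 7 reads in Control, or 0, 0 and 0.21 FPKM. It was at 2.54, 0.43, 1.89 and 2.38 FPKM in SAP (log2 fold change 4.19 ± 1.30 SE, DESeq2 adjusted p = 0.0105). Its level was thus low in all libraries but above the controls in each SAP rat. Ccl7, a monocyte attractant, was at 0.21, 0.44 and 0.54 FPKM in Control and 8.49, 1.5, 14.4 and 7.13 FPKM in SAP (log2 fold change 4.05 ± 0.95 SE, DESeq2 adjusted p = 0.00012). Ccl2, which also attracts monocytes, was at 2.65, 3.15 and 4.84 FPKM against 27.5, 9.11, 46.8 and 14.8 FPKM (DESeq2 adjusted p = 0.0166). In both genes SAP 3 was the highest and SAP 2 the lowest.

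Cxcl1 and Cxcl2, which attract neutrophils through the receptor Cxcr2, were chosen after their values were seen. Cxcl1 was at 0.63, 0.87 and 4.15 FPKM in Control and 35.4, 5.90, 25.7 and 17.4 FPKM in SAP. Cxcr2 itself had 0 reads in the 3 Control libraries and was at 0.39, 0.34, 0.30 and 0.05 FPKM in SAP. Tnf and Il1b, the classical macrophage cytokines, did not separate. Tnf was at 0.92, 0.52 and 0.72 FPKM in Control and 1.38, 0.88, 0.88 and 0.43 FPKM in SAP (log2 fold change 0.12 ± 0.48 SE, DESeq2 adjusted p = 0.93). Il1b was at 5.13, 5.49 and 10.5 FPKM against 23.9, 8.68, 33.8 and 8.21 FPKM (log2 fold change 1.078 ± 0.66 SE, DESeq2 adjusted p = 0.439), with SAP 2 and 4 inside the control range and SAP 1 and 3 above it.

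Neutrophil genes were higher, with 7 of 19 tested members called (Clec4e, Csf3r, Cxcr2, Lilrb4, S100a8, S100a9 and Trem1), against 0.795% of all genes, and a median log2 fold change of 1.58. Of the list, 25 members were in the count data. Clec4e, Lilrb4 and Trem1 had 0 to 6 reads in each Control library and Cxcr2 had 0. Such members could pass the read filter only through the SAP libraries, so the count of calls is a description and no test of the list. The list's median log2 ratio was 1.56, 1.14, 1.17 and 0.16 in SAP 1 to 4, so SAP 4 was close to the controls. The summed level of the list was 28.6 to 39.1 FPKM in Control and 56.5 to 163 FPKM in SAP. S100a9, a subunit of the neutrophil protein calprotectin, was at 0.36, 0.41 and 0.72 FPKM in Control and 38.5, 2.49, 17.7 and 4.01 FPKM in SAP (log2 fold change 4.65 ± 1.27 SE, DESeq2 adjusted p = 0.000121). Its partner S100a8 was at 0, 0.26 and 0.63 FPKM against 39.6, 4.96, 29.5 and 3.56 FPKM. Both were highest in SAP 1, and SAP 2 and 4 were the lowest of the SAP rats. Mpo, the granule enzyme made by immature neutrophils in the marrow, was lower in each SAP rat, at 0.38, 0.33 and 0.56 FPKM in Control and 0.30, 0.07, 0.26 and 0.16 FPKM in SAP, and was not called (DESeq2 adjusted p = 0.304).

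Of 20 tested macrophage and monocyte genes, 4 were called higher and 0 lower (Cd163, Gpnmb, Mrc1 and Spp1), with a median log2 fold change of 1.11. Mrc1, the mannose receptor of tissue macrophages, was at 0.34, 0.44 and 0.78 FPKM in Control and 3.85, 5.98, 2.77 and 2.24 FPKM in SAP (log2 fold change 2.5 ± 0.5 SE, DESeq2 adjusted p = 0.000185). Gpnmb, a glycoprotein of lipid-laden macrophages, was at 0.89, 1.04 and 1.39 FPKM against 4.15, 7.93, 9.22 and 4.58 FPKM (log2 fold change 2.29 ± 0.47 SE, DESeq2 adjusted p = 0.000525). The scavenger receptor Cd163, chosen after its values were seen, was at 0.69, 0.60 and 0.77 FPKM in Control and 5.83, 13.1, 4.23 and 2.83 FPKM in SAP (log2 fold change 2.99 ± 0.63 SE, and 2.46 without SAP 2). Csf1r and C1qa, which nearly all tissue macrophages express, overlapped between the groups, Csf1r at 3.29 to 4.19 FPKM in Control and 2.39 to 6.70 FPKM in SAP. The called genes were therefore part of the macrophage list and not all of it.

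Lymphocyte genes were lower on the median. In 25 T cell genes the median log2 fold change was -0.48 and in 19 B and plasma cell genes -0.77, with 8 members of each list below all controls and 0 above, where 11.9% and 11.3% of all genes were, and 0 called. Gzmb, the granule protease of cytotoxic cells, was at 31.8, 32.3 and 44.5 FPKM in Control and 14.1, 16.7, 19.8 and 22.8 FPKM in SAP (log2 fold change -1.20 ± 0.33 SE, DESeq2 adjusted p = 0.122). Pax5, the B cell identity factor, was at 1.24, 1.17 and 1.06 FPKM against 0.18, 0.58, 0.52 and 0.72 FPKM. The T cell list's median log2 ratio was -1.38 in SAP 1, -0.50 in SAP 2, -0.31 in SAP 3 and 0.05 in SAP 4, so SAP 4 was at the control level. Dendritic cell products chosen after their values were seen were called lower. Ccl22 was at 2.38, 2.67 and 4.63 FPKM in Control and 0.32, 0.36, 0.81 and 0.96 FPKM in SAP, and Il12b at 0.82, 0.66 and 0.89 FPKM against 0.10, 0.18, 0.22 and 0.26 FPKM. The list of 17 MHC class II and dendritic cell genes did not follow them, with 0 calls. Of its members 1 was below all controls and 0 above, where 11.9% and 11.3% of all genes were. Its members Batf3 and Zbtb46 overlapped, at log2 fold changes of -0.83 ± 0.42 SE and 1.20 ± 0.63 SE.

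**Figure D3:**
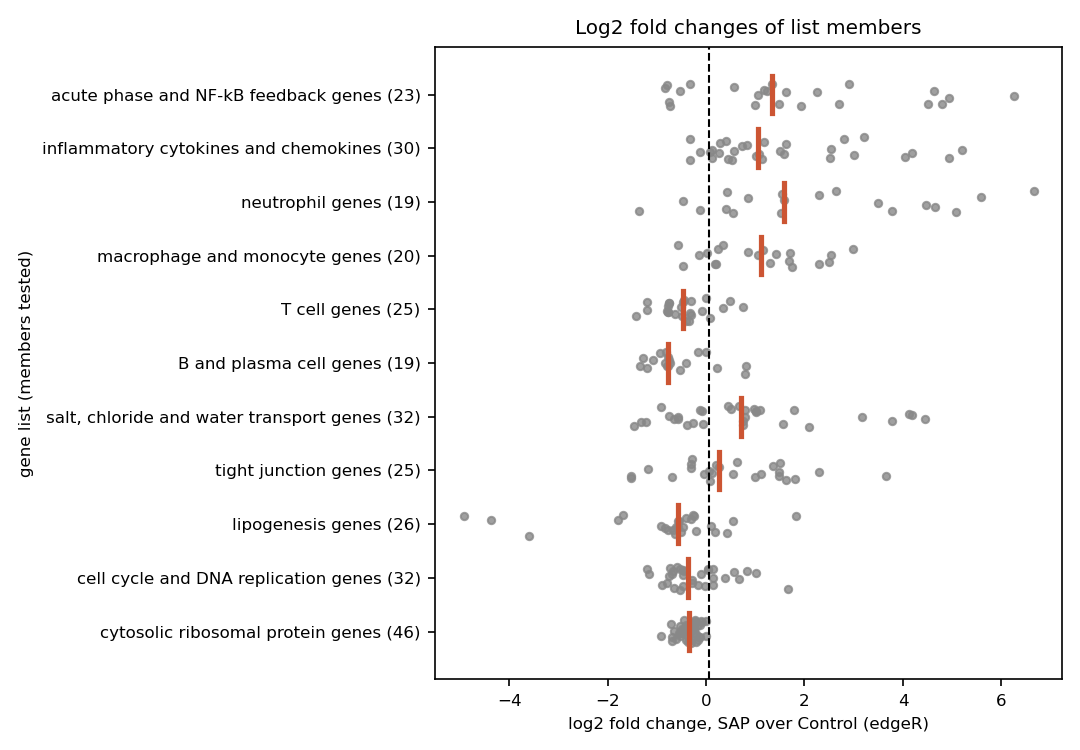
Log2 fold change (edgeR, SAP over Control) of every tested member of 11 gene lists. Points are genes, the red bar is the list median and the dashed line is the median of all genes, 0.06. Acute-phase, cytokine, neutrophil and macrophage genes lie mostly to the right, T cell, B cell and lipogenesis genes mostly to the left, and tight junction genes on both sides.

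Interferon-stimulated genes had no call in 32 tested members (median log2 fold change 0.53), and the SAP rats differed widely. The list's median log2 ratio was 0.59, -0.47, -0.21 and 1.15 in SAP 1 to 4. Ifit2, an antiviral RNA-binding protein, was at 0.51, 0.47 and 1.26 FPKM in Control and 7.37, 2.78, 1.63 and 5.11 FPKM in SAP (DESeq2 adjusted p = 0.0738). Complement genes had 2 calls among 24 members. Cfb, factor B of the alternative pathway, was at 4.50, 4.56 and 4.03 FPKM in Control and 62.0, 6.70, 61.7 and 61.4 FPKM in SAP (log2 fold change 3.34 ± 0.92 SE, DESeq2 adjusted p = 0.00198). SAP 2 was near the controls for Cfb and the other 3 SAP rats were nearly equal. C1rl, a C1r-like protease, was at 0.08, 0.04 and 0.23 FPKM against 0.87, 0.56, 0.82 and 0.90 FPKM (DESeq2 adjusted p = 0.0173).

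Genes of clotting and of the vessel wall were higher in part. Of 23 coagulation and fibrinolysis genes 3 were called higher and 0 lower, among them the plasminogen activator Plat and Thbs1, thrombospondin 1. Plat was at 2.85, 2.86 and 3.72 FPKM in Control and 27.9, 18.96, 10.0 and 7.52 FPKM in SAP (DESeq2 adjusted p = 0.0158). It was above the controls in each SAP rat, most in SAP 1 and 2. Among 22 endothelial genes 1 was called, Selp, the P-selectin that slows leukocytes on the vessel wall, at 0.02, 0.06 and 0.07 FPKM against 0.99, 0.29, 0.36 and 0.16 FPKM (DESeq2 adjusted p = 0.0371). The endothelial identity gene Pecam1 overlapped, at 8.00 to 8.81 FPKM in Control and 8.66 to 12.6 FPKM in SAP.

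Matrix genes had a median log2 fold change of 0.68 over 38 members, with Fn1 and Lox called higher and 0 lower. Fn1, fibronectin, was at 4.99, 5.08 and 6.69 FPKM in Control and 24.3, 25.9, 27.3 and 9.46 FPKM in SAP (DESeq2 adjusted p = 0.0311). Lox, which cross-links collagen, was at 0.07, 0.02 and 0.14 FPKM against 0.95, 0.76, 0.48 and 0.25 FPKM (DESeq2 adjusted p = 0.0166). The fibrillar collagen genes Col1a1 and Col3a1, chosen after their values were seen, were not called. Col1a1 was at 18.2, 19.1 and 21.3 FPKM in Control and 8.22, 7.78, 19.1 and 9.65 FPKM in SAP (DESeq2 adjusted p = 0.34). Vcan, the large chondroitin sulphate proteoglycan, was at 0.11, 0.14 and 0.10 FPKM against 1.6, 1.61, 1.77 and 0.38 FPKM. Its log2 fold change was 3.36 ± 0.66 SE, and 2.73 with the trend on gene length removed. Proteases that cut such proteoglycans, Adamts1, Adamts4 and Adamts9, were also called higher and were chosen after their values were seen. Adamts1 was at 0.62, 0.49 and 1.57 FPKM in Control and 10.5, 9.26, 3.98 and 4.62 FPKM in SAP (DESeq2 adjusted p = 0.00115).

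Among salt and water transport genes, the genes of a pair of sodium channel subunits were higher in all 4 SAP rats. Of 32 tested members 5 were called higher and 0 lower (Best2, Scnn1b, Scnn1g, Slc4a7 and Slc9a3), against 0.795% of all genes, and groups did not overlap in 10 members on the higher side and 7 on the lower, against 11.3% and 11.9%. Scnn1b and Scnn1g encode the beta and gamma subunits of the epithelial sodium channel, which takes up sodium under aldosterone, chiefly in the colon. Scnn1b was at 0.11, 0.03 and 0.06 FPKM in Control and 1.09, 0.86, 0.97 and 1.20 FPKM in SAP (log2 fold change 3.78 ± 0.49 SE, edgeR adjusted p = 0.143, DESeq2 adjusted p = 5.55e-08). Scnn1g was at 0.06, 0.07 and 0.04 FPKM against 1.62, 1.03, 0.63 and 1.22 FPKM (log2 fold change 4.19 ± 0.59 SE, edgeR adjusted p = 0.15, DESeq2 adjusted p = 4.65e-08). The controls rested on 2 to 8 reads per library and gene, so the fold rests on few control reads. Without the trend on gene length the values were 3.88 and 4.19, and without SAP 2 they were 3.90 and 4.27.

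The alpha subunit and the regulators of the channel differed less and were chosen after their values were seen. Scnn1a was at 0.93, 1.52 and 0.92 FPKM in Control and 1.88, 3.06, 2.08 and 1.40 FPKM in SAP (log2 fold change 0.76 ± 0.39 SE, DESeq2 adjusted p = 0.409). Nr3c2, the mineralocorticoid receptor, overlapped between the groups. So did Sgk1, the kinase that keeps the channel at the membrane, at 9.75, 9.86 and 19.5 FPKM against 21.7, 47.9, 17.7 and 26.5 FPKM. Best2, a calcium-activated anion channel of the large intestine, was at 0.13, 0.13 and 0.27 FPKM in Control and 2.76, 2.03, 5.42 and 8.49 FPKM in SAP (log2 fold change 4.45 ± 0.85 SE, DESeq2 adjusted p = 3.29e-07). Slc9a3, the sodium-proton exchanger of the brush border, was at 0.10, 0.15 and 0.47 FPKM against 11.5, 9.90, 1.04 and 1.21 FPKM, and was highest in SAP 1 and 2. Its log2 fold change was 4.12 ± 1.25 SE, and 3.44 with the trend on gene length removed. The list's median of 0.71 became 0.34 with the trend on gene length removed.

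Tight junction genes had no common direction. Among 25 tested members 1 was called higher, Cldn8, and 0 lower, and 3 members lay above and 3 below all controls, near the 11.3% and 11.9% of all genes. Cldn8, a claudin that seals the junction against sodium in tight epithelia such as that of the colon, was at 0.05, 0.03 and 0.04 FPKM in Control and 1.07, 0.42, 0.26 and 0.57 FPKM in SAP (log2 fold change 3.66 ± 0.76 SE, DESeq2 adjusted p = 0.0021). It had 3, 2 and 3 reads in Control 1 to 3, so it could pass the read filter only through the SAP libraries. Cldn4 was at 102, 102 and 81.8 FPKM in Control and 23.8, 31.8, 29.5 and 57.3 FPKM in SAP (log2 fold change -1.52 ± 0.43 SE, DESeq2 adjusted p = 0.116). Cldn3 and Cldn15, chosen after their values were seen, were also below the controls in each SAP rat without being called, Cldn15 at 55.8, 55.0 and 48.6 FPKM against 9.58, 12.96, 30.6 and 26.6 FPKM. Cldn2, the pore-forming claudin, overlapped at 19.4, 18.8 and 14.7 FPKM against 49.0, 29.3, 22.9 and 13.1 FPKM.

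Tjp1, the scaffold protein ZO-1, and Ocln, occludin, were high in 2 of the 4 SAP rats. Tjp1 was at 1.07, 0.99 and 1.30 FPKM in Control and 11.1, 12.8, 1.48 and 1.41 FPKM in SAP (log2 fold change 2.30 ± 0.98 SE, DESeq2 adjusted p = 0.171). Ocln was at 14.5, 13.7 and 22.6 FPKM against 73.3, 100.1, 24.7 and 19.2 FPKM (log2 fold change 1.36 ± 0.66 SE, DESeq2 adjusted p = 0.313). The kinases Rock1 and Pak2 and the apoptosis inhibitor Xiap had the same form, with Rock1 at 1.58, 1.56 and 3.99 FPKM in Control and 39.6, 48.9, 3.81 and 2.93 FPKM in SAP. None of the 5 was called. SAP 1 and 2, in which all 5 were high, are the libraries with more of the long genes. With that trend removed the log2 fold change fell from 2.30 to 1.54 for Tjp1 and from 1.36 to 0.95 for Ocln. It fell from 2.88 to 2.2 for Rock1 and from 1.69 to 1.07 for Xiap, but rose from 2.31 to 2.73 for Pak2. The part of library composition in these values was not tested beyond that correction.

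**Figure D4:**
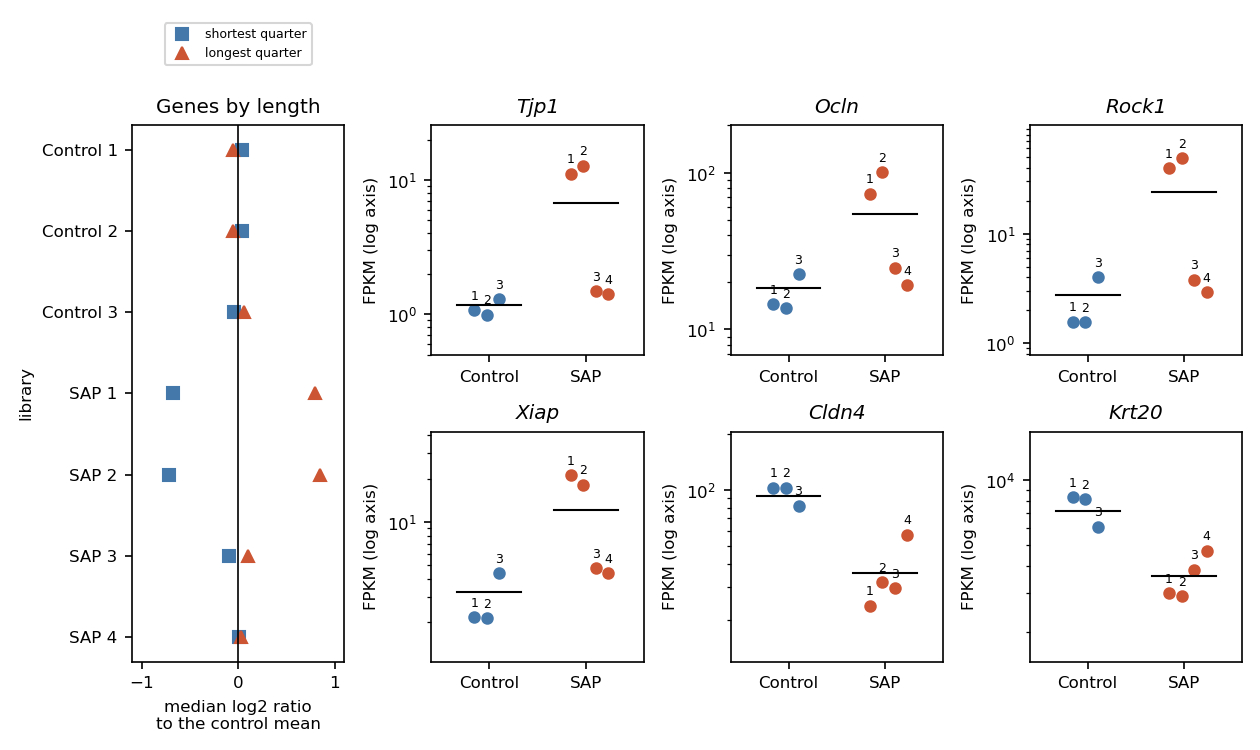
Left, median log2 ratio to the control mean of the genes up to 1.89 kb (squares) and from 5.36 kb (triangles) in each library. Right, FPKM on a log axis of Tjp1, Ocln, Rock1, Xiap, Cldn4 and Krt20, with library numbers and a bar at the group mean. SAP 1 and 2 stand apart in the left panel and for the first 4 genes, whereas Cldn4 and Krt20 are lower in all 4 SAP libraries.

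The keratin genes Krt20 and Krt8 were lower in each SAP rat without being called. Krt20, the keratin of mature villus cells, was at 8322, 8126 and 6090 FPKM in Control and 3014, 2912, 3857 and 4715 FPKM in SAP (log2 fold change -1.14 ± 0.39 SE, DESeq2 adjusted p = 0.186). Krt8 was at 4586, 4265 and 3298 FPKM against 1321, 1202, 2263 and 2265 FPKM. In a list of 13 epithelial markers 11 had a negative log2 fold change and 2 a positive one, with a median of -0.58. Of these markers 5 were below and 2 above all controls, where 11.9% and 11.3% of all genes were. Cdh17, an intestinal cadherin chosen after its values were seen, was 1 of those above, at 107, 107 and 109 FPKM against 278, 277, 147 and 153 FPKM. Epcam, a pan-epithelial marker, was below the controls in each SAP rat, with a log2 fold change of -0.47 ± 0.33 SE. That value became -0.145 with the trend on gene length removed. The marker Vil1 overlapped at -0.50 ± 0.36 SE, and Cdh1, E-cadherin, was above the controls at 0.20 ± 0.27 SE. Most markers were therefore lower, but not all, and 0 were called. Of 30 brush border enzymes and nutrient transporters 23 had a negative log2 fold change and 0 were called. Mme, the peptidase neprilysin, was at 40.7, 41.2 and 40.9 FPKM in Control and 3.68, 2.83, 10.2 and 18.2 FPKM in SAP (log2 fold change -2.33 ± 0.73 SE, DESeq2 adjusted p = 0.0953). Alpi, intestinal alkaline phosphatase, spread from 0.33 FPKM in SAP 3 to 34.5 FPKM in SAP 2 around control values of 21.0, 20.6 and 17.9 FPKM.

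Fabp6, which carries bile acids across the ileal enterocyte, was at 21769, 21819 and 20506 FPKM in Control and 6571, 3079, 13670 and 7598 FPKM in SAP. All 4 SAP rats were below the controls, but the difference was not called (log2 fold change -1.6 ± 0.55 SE, DESeq2 adjusted p = 0.176) and became -1.1 with the trend on gene length removed. The basolateral bile acid exporter genes Slc51a and Slc51b, chosen after their values were seen, were also below the controls in each SAP rat without a call, Slc51b at 1891, 1952 and 1837 FPKM against 632, 397, 1250 and 1748 FPKM. Slc10a2, the apical bile acid uptake carrier, overlapped at 50.9, 51.5 and 82.0 FPKM against 135.8, 49.6, 71.9 and 83.5 FPKM. So did the list member Cyp3a18, at a log2 fold change of 1.715 ± 0.748 SE. Of 14 tested ileal bile acid genes 9 had a positive log2 fold change and 5 a negative one, with a median of 0.33. The list's median log2 ratio was 0.02, -0.12, -0.32 and -0.22 in SAP 1 to 4. Below all controls lay 3 members and above them 0, where 11.9% and 11.3% of all genes did.

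Among the gene lists, lipogenesis genes had the most calls on the lower side. Of 26 tested members 4 were called lower (Fasn, Pnpla3, Scd and Thrsp) and 0 higher, against 0.341% of all genes called lower. Below all controls lay 11 members and above them 0, where 11.9% and 11.3% of all genes did. This share of 42.3% was close to that of B and plasma cell genes (42.1%) and of cell cycle genes (40.6%), which had 0 calls. The list's median log2 ratio was close in the 4 SAP rats at -0.50, -0.68, -0.41 and -0.47. Scd, the desaturase that makes oleate, was at 7.66, 7.36 and 4.64 FPKM in Control and 0.10, 0.44, 0.24 and 0.14 FPKM in SAP (log2 fold change -4.92 ± 0.57 SE, edgeR adjusted p = 0.121, DESeq2 adjusted p = 6.96e-13). Thrsp, a co-regulator of fat synthesis, was at 233, 222 and 153 FPKM against 13.4, 3.09, 16.4 and 8.89 FPKM (log2 fold change -4.36 ± 0.61 SE, DESeq2 adjusted p = 8.57e-09). Pnpla3, a lipid droplet acyltransferase and lipase regulated by feeding, was at 1.67, 1.76 and 1.32 FPKM against 0.10, 0.13, 0.14 and 0.19 FPKM. These 3 genes were lower by more than 10-fold on the fitted scale, and no SAP library came near the controls.

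The rest of the pathway was less uniform, and its members were chosen after their values were seen. Fasn, fatty acid synthase, was at 9.0, 8.45 and 5.81 FPKM in Control and 3.30, 2.04, 2.5 and 1.79 FPKM in SAP (log2 fold change -1.79 ± 0.33 SE, DESeq2 adjusted p = 0.00268). Srebf1, the transcription factor of the pathway, was at 4.73, 4.41 and 4.31 FPKM against 3.95, 2.88, 3.56 and 2.71 FPKM and was not called (DESeq2 adjusted p = 0.389). Acaca and Acly, which supply malonyl-CoA and acetyl-CoA, overlapped between the groups. The elongase Elovl6 was not lower, at 3.40, 3.45 and 4.08 FPKM against 25.5, 26.2, 7.32 and 3.28 FPKM, and was highest in SAP 1 and 2.

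Of 28 genes of fatty acid oxidation and fasting, 3 were called higher, among them Angptl4 and Pdk4, and 0 lower. Angptl4, a lipoprotein lipase inhibitor made on fasting, was at 0.79, 0.81 and 0.78 FPKM against 3.27, 4.72, 4.27 and 1.70 FPKM (DESeq2 adjusted p = 0.00788). Pdk4, which shuts pyruvate oxidation, was chosen after its values were seen and was at 0.04 to 0.05 FPKM in Control and 1.11, 4.82, 0.19 and 0.23 FPKM in SAP (log2 fold change 4.80 ± 1.61 SE, and 3.25 without SAP 2). It had 2 reads in each Control library, so it too could pass the read filter only through the SAP libraries. Food intake of the rats is not given in the sources used here, and its part in the lipid genes was not tested. Apoa4, a lymph apolipoprotein that follows fat feeding, was chosen after its values were seen. It was at 287, 300 and 406 FPKM against 31.2, 179.7, 134 and 202 FPKM and was not called (DESeq2 adjusted p = 0.28). Of 26 cholesterol synthesis genes 0 were called, and the median log2 fold change was -0.23.

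Crypt and secretory cell genes had no calls in the lists of this paragraph. Among 15 tested epithelial defense genes 0 were called. The antimicrobial lectins Reg3b and Reg3g, chosen after their values were seen, overlapped, with Reg3b at 6245, 6222 and 4918 FPKM in Control and 6110, 5020, 6506 and 5015 FPKM in SAP. Muc2, the gel-forming mucin, was at 83.0, 84.3 and 62.1 FPKM against 118.8, 269, 65.2 and 34.2 FPKM and Lyz2, lysozyme 2, at 1204, 1200 and 989 FPKM against 643, 2191, 1212 and 1581 FPKM. Both overlapped and turned negative without SAP 2, at log2 fold changes of -0.18 and -0.04. With the trend on gene length removed Muc2 was at -0.478. The Paneth cell list had a median log2 ratio of -1.48, -0.70, -0.13 and 0.29 in SAP 1 to 4. Its genes are short, with a median of 0.70 kb, and the list's median log2 fold change of -0.27 became 0.09 with the trend on gene length removed. In 46 ribosomal protein genes, with a median length of 0.78 kb, it went from -0.35 to 0.01. Of 32 cell cycle genes 13 (40.6%) were below all controls and 0 above, where 11.9% and 11.3% of all genes were. Their median log2 fold change was -0.37, with 0 calls. Birc5, the mitotic protein survivin, was at 87.8, 86.4 and 77.3 FPKM in Control and 30.1, 29.2, 46.9 and 52.7 FPKM in SAP (log2 fold change -1.20 ± 0.38 SE, DESeq2 adjusted p = 0.19). Mki67 overlapped.

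**Figure D5:**
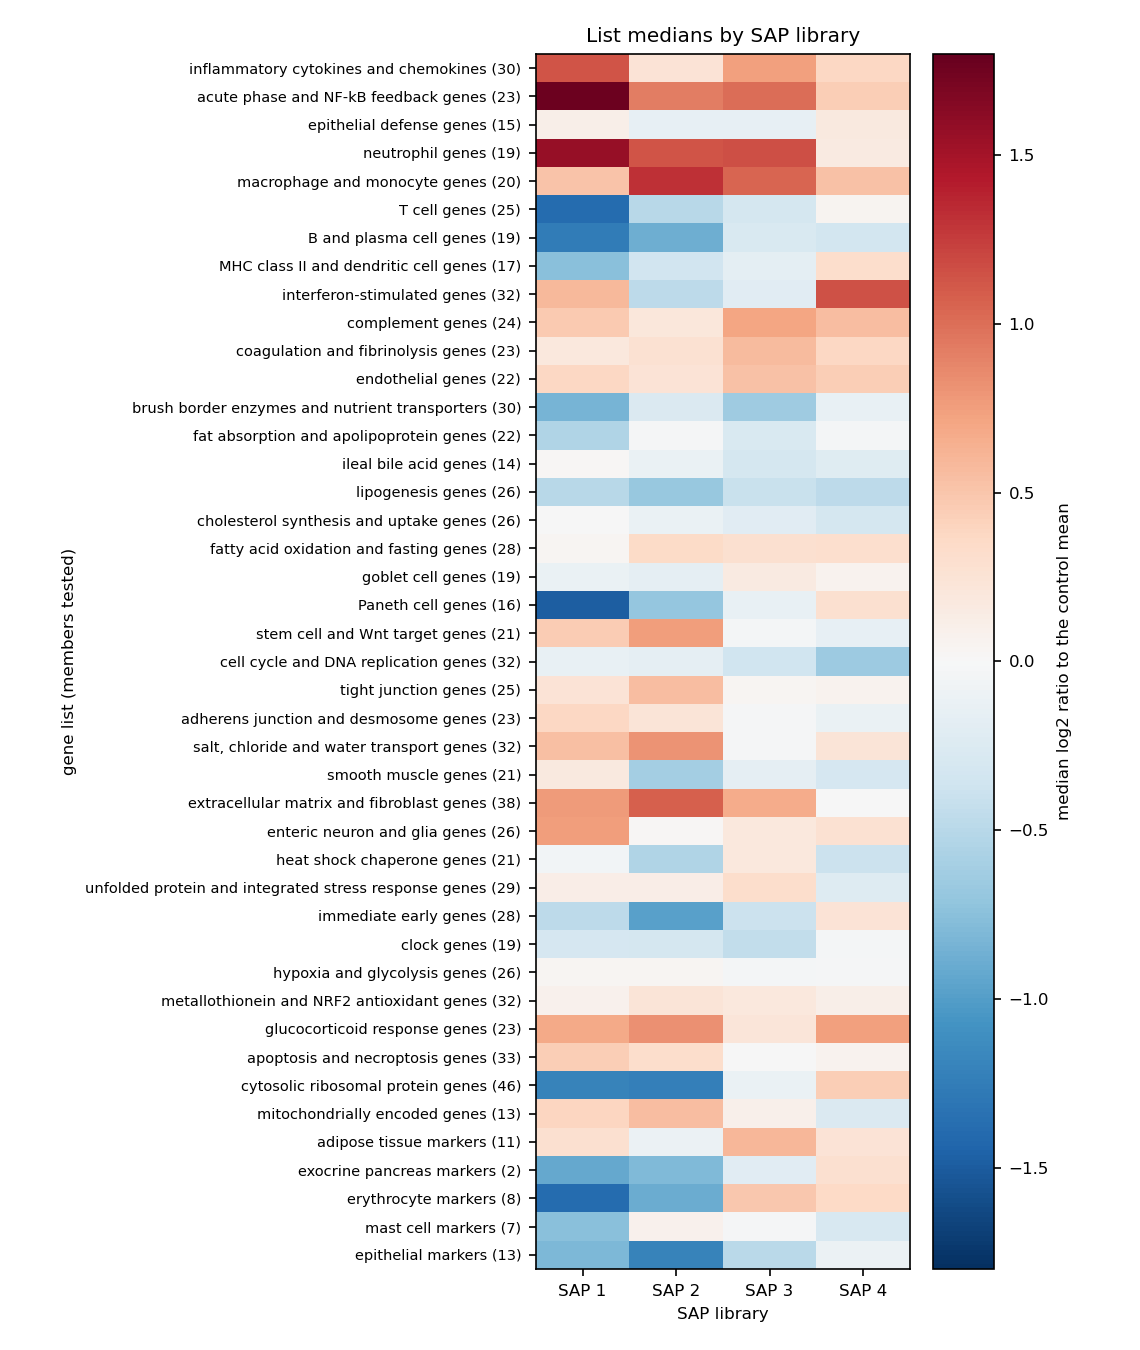
Median log2 ratio to the control mean of the tested members of 43 gene lists (rows, member count in brackets) in each SAP library (columns). Acute-phase, cytokine, neutrophil and macrophage lists are positive and B cell and lipogenesis lists negative in all 4 columns, whereas interferon, Paneth cell, ribosomal and immediate early lists have both signs.

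The stress-responsive factors Atf3 and Fosb were called lower, the only calls among 28 immediate early genes. Atf3, induced by injury and by the integrated stress response, was at 54.4, 53.3 and 24.3 FPKM in Control and 6.42, 5.14, 4.82 and 9.67 FPKM in SAP (log2 fold change -2.76 ± 0.46 SE, DESeq2 adjusted p = 9.71e-05). Fosb, an AP-1 subunit, was at 1.70, 1.98 and 0.80 FPKM against 0.23, 0.31, 0.18 and 0.20 FPKM (log2 fold change -2.72 ± 0.45 SE, DESeq2 adjusted p = 0.000121). The list as a whole had median log2 ratios of -0.47, -0.98, -0.39 and 0.24 in SAP 1 to 4. Of 21 heat shock genes 0 were called. In 29 unfolded protein and stress response genes Atf3 was the only call, and Sesn2 was at 6.59, 6.51 and 5.90 FPKM against 14.7, 18.5, 9.32 and 8.82 FPKM (DESeq2 adjusted p = 0.33).

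Mt1m, a metallothionein that binds zinc and copper, was called higher, at 2.36, 2.31 and 6.59 FPKM in Control and 21.8, 13.4, 22.3 and 45.2 FPKM in SAP (log2 fold change 2.44 ± 0.69 SE, DESeq2 adjusted p = 0.0198). In the enteric nervous system Gfap, the intermediate filament of glia, was called higher at 0.77, 0.62 and 0.69 FPKM against 3.89, 1.54, 4.22 and 3.31 FPKM (log2 fold change 2.08 ± 0.51 SE, DESeq2 adjusted p = 0.00884), while the glial marker Sox10 had a log2 fold change of 0.95 ± 0.46 SE without a call. Among 33 apoptosis and necroptosis genes 0 were called. Bcl2, which blocks apoptosis, was at 0.11, 0.08 and 0.05 FPKM against 0.73, 1.06, 0.26 and 0.13 FPKM (DESeq2 adjusted p = 0.0859).

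The other lists had few or no calls. Glucocorticoid response genes had a median log2 fold change of 0.79 over 23 members, and their 3 calls, Angptl4, Lcn2 and Pdk4, were also members of lists above. The median was 0.64 in the complement list, 0.50 in the coagulation list, 0.62 in the endothelial list, 0.57 in 26 enteric neuron and glia genes and 0.28 in 32 metallothionein and NRF2 genes. It was 0.37 in 21 stem cell and Wnt target genes, 0.07 in 19 goblet cell genes, -0.23 in 17 MHC class II and dendritic cell genes, and -0.20 in 22 fat absorption genes, with 0 calls in each. Lgr5, the crypt stem cell receptor, was at 0.02, 0.13 and 0.11 FPKM in Control and 0.28, 0.67, 0.21 and 0.22 FPKM in SAP, while Ascl2, a stem cell transcription factor, was at 1.84, 2.02 and 2.18 FPKM against 0.60, 0.94, 1.47 and 0.71 FPKM. Neither was called (DESeq2 adjusted p = 0.193 and 0.204). The goblet cell gene Agr2, a disulphide isomerase needed for mucin folding, was at 655, 664 and 755 FPKM against 410.0, 454, 529 and 307 FPKM (DESeq2 adjusted p = 0.196). Its log2 fold change of -0.909 became -0.458 with the trend on gene length removed.

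Adherens junction and desmosome genes, Krt8 and Krt20 among them, had 0 calls among 23 members. Groups did not overlap in 4 members on the higher side and 6 on the lower, against 11.3% and 11.9% of all genes. The list's median of 0.20 became -0.05 with the trend on gene length removed. The median of 13 mitochondrially encoded genes went from 0.21 to 0.81 under the same correction. Clock genes (19 members, median -0.17) and hypoxia and glycolysis genes (26 members, median 0.09) had 0 calls. Cry2, a repressor of the clock, was at 4.98, 5.26 and 5.11 FPKM in Control and 1.71, 2.17, 2.60 and 3.66 FPKM in SAP (log2 fold change -1.16 ± 0.40 SE, DESeq2 adjusted p = 0.223). The glycolytic enzyme Pkm was at 239, 235 and 158 FPKM against 77.9, 73.8, 155.6 and 104 FPKM, so SAP 3 came close to Control 3. Ileal bile acid genes had a median of 0.33 over 14 members and 0 calls.

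Muscle genes showed different patterns. Among 21 smooth muscle genes 1 was called, Casq2, the calcium store protein calsequestrin, at 0.57, 1.01 and 1.18 FPKM in Control and 0.19, 0.30, 0.34 and 0.31 FPKM in SAP (log2 fold change -1.96 ± 0.42 SE, DESeq2 adjusted p = 0.0132). The smooth muscle myosin Myh11 overlapped, at 167 to 184 FPKM in Control and 149 to 341 FPKM in SAP. Myh6, the cardiac alpha myosin heavy chain, had the smallest p of all genes, at 1.72, 1.93 and 0.80 FPKM against 0.03, 0.05, 0.05 and 0.04 FPKM (log2 fold change -5.14 ± 0.48 SE, DESeq2 adjusted p = 3.62e-15). Myh7, Myh2 and Myom2, other striated muscle genes chosen after their values were seen, were called lower as well, Myom2 at 0.37, 0.22 and 0.23 FPKM against 0.02, 0.02, 0.04 and 0.03 FPKM.

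Tissues next to the ileum could enter such samples, and markers of some of them were measured. The paper describes taking ileum beside the cecum, but no list of cecum or colon markers was used here. Scnn1b, Scnn1g, Best2 and Cldn8 are described above with the colon or large intestine. Whether tissue of the large intestine had a part in their values was not tested. The 11 adipose markers summed to 285 to 471 FPKM in Control and 310 to 792 FPKM in SAP, with 0 members apart in either direction. The whole erythrocyte list summed to 134 to 343 FPKM against 55.8 to 375 FPKM, also with 0 of its 8 tested markers apart. Of 18 exocrine pancreas markers only 2 had enough reads to test. The 7 tested mast cell markers had median log2 ratios of -0.75, 0.08, -0.02 and -0.29 in SAP 1 to 4, with 2 members below all controls, where 11.9% of all genes were, and 0 called. Over the whole mast cell list the sum was 166 to 188 FPKM in Control and 31.2 to 115 FPKM in SAP. It was mostly the mucosal mast cell protease Mcpt2, chosen after its values were seen, at 158, 168 and 179 FPKM against 24.7, 103, 81.0 and 52.5 FPKM (DESeq2 adjusted p = 0.168).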

How the data were processed

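RNA of rat ileum was sequenced from a stranded mRNA library as paired reads on an Illumina NovaSeq. The authors trimmed reads with FASTX-Toolkit, aligned them with HISAT2 to mRatBN7.2 and kept unique alignments. How reads were counted, and on which annotation, is not given in the sources used here. Raw read counts were deposited for 24481 genes, and FPKM, as the authors computed them, were deposited for 24205 genes. Counts were tested and FPKM were used to show levels. FPKM depend on the total of a library, so a few very abundant genes shift the rest, and they were not tested.

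Control 1 and 2 were summed. Counts were fitted with edgeR 4.0.16 (glmQLFit and glmQLFTest, TMM, filterByExpr), with Benjamini-Hochberg adjusted p under 0.05 and a fold change above 2 or below 0.5. An exact permutation test of 4 against 2 samples cannot go below p = 0.0667 and was not used. Nothing says more of the replicates than that they are separate samples, so p-values measure the spread between these samples. DESeq2 1.42.0, the tool of the study, and limma 3.58.1 (voom) were alternatives, besides other normalization, other filters, all 3 groups in 1 fit, a replicate block, offsets for the trend on gene length (length taken from counts and FPKM) and leaving out each library. The DESeq2 fits without each library were added after the data were seen. List medians by library used CPM plus 0.5. Scripts were tested on simulated counts, in which DESeq2's false calls at this sample size went well past the threshold with the estimated spread, while edgeR made few calls, true or false.

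The genes named are 10 in each direction with the smallest p among genes with a proper symbol, on average at least 100 reads and groups that did not overlap in any library, the 2 members with the smallest p of each of 38 gene lists, and a fixed set (Il6, Tnf, Il1b, Lcn2, S100a9, Tjp1, Ocln, Cldn2, Cldn4, Muc2, Lyz2, Alpi, Fabp6, Scd, Rock1, Pak2, Xiap). Any other gene is a marker or a called member of a list, or is marked in the text as picked with its values known. The comparison, the lists and the rule were chosen with earlier results of these data known. Overlap of groups was judged on TMM-normalized counts with Control 1 and 2 summed. Some genes that this rule names are not reported here.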

Additional observations from a re-analysis of the deposited data

Results flagged for a closer look

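In 103 sets of 4 SAP values, Dixon's test at the 95% level marked 7 in which 1 SAP rat stood apart from the other 3. Chance marks about 1 in 20 such sets. Chi3l1 was at 10.4 FPKM in SAP 4, Vcan at 0.38 FPKM and Fn1 at 9.46 FPKM in the same library, each the lowest of its group. Cfb was at 6.7 FPKM in SAP 2, the lowest of its group, and Lgr5, the crypt stem cell receptor, was at 0.67 FPKM in SAP 2, the highest. Nod2 was at 0.06 FPKM in SAP 3, where the other 3 were at 0.08 FPKM, a difference at the last decimal of the file. The reads on LOC100911498 (Xist) numbered 7826 in SAP 2 against 0 to 56 in the others. The causes of these values were not tested.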

How the results depend on the processing

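The count of calls depended on the tool, on the control samples and on single libraries, SAP 4 above all in DESeq2. Against 0 calls with edgeR (1457 genes at an unadjusted p under 0.05), 3 separate control libraries gave 33 (15 higher, 18 lower), no filter on low counts 14 (6 and 8), limma-voom 14 (8 and 6), all 3 groups in 1 fit 4 (2 and 2), and DESeq2 203 (142 and 61), or 1468 (1115 and 353) with separate controls. The replicate block with separate controls gave 1 call (0 and 1). Same-numbered Control and SAP libraries correlated at -0.27, -0.25 and -0.38 in their deviations from the group mean. Control 1 and 2 are nearly identical, so Control 3 must deviate the opposite way, and this cannot decide whether the numbers pair the samples. DESeq2 size factors, at least 10 reads in every library, gene length offsets and no fold threshold gave 0. Leaving out 1 library gave 0 to 3 calls (0 to 1 higher, 0 to 2 lower), the 3 without SAP 4, and 65 to 1404 with DESeq2, namely 102 without SAP 1, 511 without SAP 3, 1404 without SAP 4 and 65 without Control 3. Genes without overlap ranged from 1798 to 4602 higher and 1868 to 4375 lower, with 3341 and 3461 without SAP 4 and the most without Control 3. Of 99 named genes 94 kept their sign in every fit and 79 passed an adjusted p of 0.05 in at least 1. Signs turned for ND3 with length offsets (log2 fold change 0.05), for Muc2 with limma-voom (-0.007) or length offsets (-0.478), and for Lyz2 under the block (-0.127). Leaving out 1 library, the log2 fold change ran from -0.131 (without SAP 1) to 0.343 for Tnf, from -0.179 (without SAP 2) to 0.794 for Muc2, from -0.042 (without SAP 2) to 0.447 for Lyz2 and from -0.88 to 0.025 (without SAP 3) for Alpi, and was -0.076 for Tnf without Control 2 and -0.009 for Lyz2 without Control 3. In DESeq2 the signs turned for Tnf at -0.138 without SAP 1 and -0.076 without Control 2, Muc2 at -0.187 without SAP 2, Lyz2 at -0.049 without SAP 2 and -0.016 without Control 3, and Alpi at 0.026 without SAP 3. Of 748 list medians 47 moved by more than the set spread; the neutrophil median was 2.58 without Control 3, the salt transport median 0.34 and the mitochondrial median 0.81 with length offsets. The causes were not tested.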

Other observations

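Further genes called higher by DESeq2, chosen after their values were seen, included an imprinted RNA and genes of surface proteins. H19, an imprinted non-coding RNA of fetal tissues, was at 1.32, 1.67 and 3.42 FPKM in Control and 227.8, 30.9, 56.7 and 36.3 FPKM in SAP (log2 fold change 4.98 ± 1.06 SE, DESeq2 adjusted p = 1.6e-07). Prg4, the surface lubricant lubricin, was at 0.06, 0.06 and 0.34 FPKM against 21.0, 9.01, 4.60 and 1.52 FPKM, and Pdpn, podoplanin, at 4.09, 3.47 and 3.38 FPKM against 15.9, 13.5, 16.1 and 6.25 FPKM. Osmr, the oncostatin M receptor chain of the interleukin-6 family, was at 0.16, 0.17 and 0.40 FPKM against 3.72, 4.05, 1.20 and 0.63 FPKM. All 4 SAP rats were above the controls in each of the 4 genes.

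Among genes called lower and chosen after their values were seen, several had low levels in all libraries. Cfap100, a cilia protein, was at 0.52, 0.33 and 0.39 FPKM in Control and 0.01, 0.02, 0.02 and 0.03 FPKM in SAP (log2 fold change -4.32 ± 0.56 SE, DESeq2 adjusted p = 5.43e-05). The transcription factor Rfx2 was at 1.03, 0.90 and 1.02 FPKM against 0.32, 0.40, 0.43 and 0.38 FPKM. Slc16a3, the lactate exporter MCT4, was at 20.4, 22.1 and 13.6 FPKM against 2.59, 3.10, 5.66 and 6.13 FPKM (log2 fold change -2.15 ± 0.47 SE, DESeq2 adjusted p = 0.0106).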
